A study of Mus musculus with 12 samples.

Results

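Genes of the major histocompatibility complex (MHC) and of antigen processing were chosen by name: every gene of the deposited table whose symbol begins with H2-, and B2m, Tap1, Tap2, Tapbp, Tapbpl, Psmb8, Psmb9, Psmb10, Psme1, Psme2, Erap1, Nlrc5, Ciita and Cd74. They are 59 of the 49585 genes in the table. Class I holds 34 of them, with B2m and the regulator Nlrc5, class II holds 14, with Cd74 and the regulator Ciita, and processing holds 10. The last, H2-Ke6, shares only the H2 name and encodes a steroid dehydrogenase. RNA came from RAW264.7, a mouse macrophage-like line derived from a BALB/c tumour, and every culture had been given 10 ng/mL LPS, a component of bacterial outer membranes, together with mouse IFN-γ at 10 ng/mL. The 4 groups were Mdivi-1 at 96 h, no Mdivi-1 at 96 h, Mdivi-1 at 24 h and no Mdivi-1 at 24 h, with 3 libraries each. Mdivi-1, described as an inhibitor of the mitochondrial fission protein Drp1, was added at 50 µM at the same time as the stimuli. No unstimulated cells were analysed here, so the values cannot show what LPS and IFN-γ did, and the comparisons concern Mdivi-1 and time in stimulated cells of 1 line.

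MHC class I molecules are heavy chains, such as those encoded by H2-K1 and H2-D1, paired with beta-2 microglobulin (B2m), and they present peptides from the cell's own proteins to CD8 T cells. The peptides are cut by the proteasome, whose inducible catalytic subunits are Psmb8, Psmb9 and Psmb10 and whose activator is built from Psme1 and Psme2, then carried into the endoplasmic reticulum by Tap1 and Tap2, loaded with the help of tapasin (Tapbp) and trimmed by Erap1. MHC class II molecules, such as those of H2-Aa with H2-Ab1, are assembled on the invariant chain Cd74 and loaded in endosomes by H2-DM, and they present peptides from ingested material to CD4 T cells. In macrophages IFN-γ is known to raise class I genes through Irf1 and Nlrc5, and class II genes through Ciita.

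The 6 promoters shown are those of B2m, H2-K1, H2-D1, Tap1, Psmb8 and H2-Aa, the chains, partner and processing steps on which the results below turn. Each holds at least 1 match to the short sequence elements searched, which are of kinds through which the family is known to be controlled. Each is the RefSeq sequence on GRCm38.p6 from 250 bases before to 50 bases after the gene's start, in the direction of transcription: H2-K1 at chr17:34000298-34000597 (minus strand), H2-D1 at chr17:35262844-35263143 (plus), B2m at chr2:122147437-122147736 (plus), Tap1 at chr17:34187306-34187605 (plus), Psmb8 at chr17:34197945-34198244 (plus) and H2-Aa at chr17:34287774-34288073 (minus). This is the C57BL/6 reference, and RAW264.7 carries BALB/c alleles, so single bases may differ. Capitals mark matches, on either strand, to an interferon-stimulated response element (ISRE, searched as GAAA followed after any 2 bases by GAAA), a gamma-activated site (GAS, searched as TTCNNNGAA), an NF-κB-type site (GGGNNTTCC) and a CCAAT box (CCAAT).
H2-K1: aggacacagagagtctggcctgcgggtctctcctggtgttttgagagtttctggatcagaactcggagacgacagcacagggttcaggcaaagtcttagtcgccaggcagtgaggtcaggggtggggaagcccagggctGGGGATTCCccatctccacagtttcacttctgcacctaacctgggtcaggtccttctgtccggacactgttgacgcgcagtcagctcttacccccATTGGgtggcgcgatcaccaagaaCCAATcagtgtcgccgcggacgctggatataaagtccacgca
H2-D1: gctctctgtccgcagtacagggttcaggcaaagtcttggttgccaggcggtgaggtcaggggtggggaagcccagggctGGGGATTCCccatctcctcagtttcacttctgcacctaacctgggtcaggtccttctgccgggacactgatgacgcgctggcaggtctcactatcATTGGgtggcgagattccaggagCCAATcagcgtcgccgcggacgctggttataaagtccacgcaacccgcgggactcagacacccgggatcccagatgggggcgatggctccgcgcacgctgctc
B2m: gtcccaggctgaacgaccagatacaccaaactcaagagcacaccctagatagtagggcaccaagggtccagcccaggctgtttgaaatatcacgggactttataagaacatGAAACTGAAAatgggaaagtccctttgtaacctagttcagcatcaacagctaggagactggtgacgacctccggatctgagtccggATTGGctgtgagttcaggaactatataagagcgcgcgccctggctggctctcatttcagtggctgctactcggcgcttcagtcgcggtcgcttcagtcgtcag
Tap1: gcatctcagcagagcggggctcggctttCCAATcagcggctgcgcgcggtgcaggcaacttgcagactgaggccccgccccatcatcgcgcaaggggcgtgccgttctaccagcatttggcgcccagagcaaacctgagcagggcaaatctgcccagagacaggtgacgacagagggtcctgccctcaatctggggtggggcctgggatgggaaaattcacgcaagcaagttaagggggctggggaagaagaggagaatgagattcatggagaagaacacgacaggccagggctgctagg
Psmb8: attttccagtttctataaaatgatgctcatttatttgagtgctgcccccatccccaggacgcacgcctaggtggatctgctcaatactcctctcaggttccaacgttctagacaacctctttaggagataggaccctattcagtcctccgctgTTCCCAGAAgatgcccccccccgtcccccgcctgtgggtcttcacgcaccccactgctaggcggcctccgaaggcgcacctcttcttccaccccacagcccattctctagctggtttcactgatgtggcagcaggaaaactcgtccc
H2-Aa: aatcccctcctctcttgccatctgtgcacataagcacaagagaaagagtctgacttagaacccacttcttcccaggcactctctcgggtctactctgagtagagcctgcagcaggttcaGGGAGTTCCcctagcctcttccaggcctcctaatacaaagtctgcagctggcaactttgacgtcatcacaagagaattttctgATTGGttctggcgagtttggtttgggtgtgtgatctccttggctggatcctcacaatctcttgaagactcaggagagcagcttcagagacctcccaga

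Among the 41 members with a RefSeq promoter, an ISRE match stood in 5 (B2m, H2-T22, H2-T23, Erap1 and Psme1), against 3.43% of 32817 mouse promoters of the same length. An NF-κB-type match stood in 8, namely H2-D1, H2-K1, H2-M2, H2-Q4, H2-Q6, H2-Q7, H2-Aa and H2-Oa, against 5.82% of all promoters. A GAS match stood in 4 members against 8.29%. The CCAAT box was found in 21 of the 24 class I promoters, in 8 of the 8 class II promoters and in 3 of the 8 processing promoters, against 37.4% of all promoters. H2 promoters share descent, and the windows of Tap1 and Psmb9, which are transcribed away from each other, overlap by 275 bases and share a CCAAT box, so these promoters are not independent. The counts describe exact matches of letters in a window and say nothing of binding. Near matches were not counted, so the lack of a match is not the lack of an element.

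The libraries differed in make-up, which bears on every level given in TPM, transcripts per 1000000 corrected for length. Mitochondrial transcripts took 58.6 to 80.8% of TPM in the 96 h libraries and 5.2 to 6.68% in 24 h libraries 1 and 2, while structured nuclear RNA took 4.71 to 6.26% and 46.4 to 53.1%. Both 24 h libraries numbered 3 held 96.0% (Mdivi-1) and 95.2% (no Mdivi-1) mitochondrial transcripts and only 15.1 and 18.3 TPM of class I RNA, so the results come from the other 10 libraries, and values with all 12 are given where they differ. Olfactory and other sensory receptor genes, taken here as a guide to background, had medians between 0.501 and 2.71 TPM at 96 h and of 0 TPM in the 24 h libraries numbered 1 or 2. The 96 h median was lowest in no Mdivi-1 library 3, which also held the most mitochondrial RNA. Of the macrophage markers analysed, all 9 were above 1 TPM in these 10 libraries, with sums of 269 to 413 TPM at 96 h and 18363 to 20630 TPM at 24 h. Sequencing depth cannot be recovered from TPM, and in bulk RNA fewer cells with a transcript and less of it per cell cannot be told apart.

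At 24 h class I RNA was abundant in these cells and class II RNA was scarce. B2m had 5227 and 5056 TPM with Mdivi-1, against 5694 and 6046 TPM without it. H2-D1 had 1764 and 1609 TPM with Mdivi-1 and 1716 and 1726 TPM without it, and H2-K1 had 1067 and 1006 TPM with it and 1179 and 1190 TPM without it. The other heavy chains lay well below: H2-T23, the mouse Qa-1 gene, had 284 and 271 TPM with Mdivi-1 and 271 and 277 TPM without it, and H2-M2, a nonclassical gene, had 176 and 131 TPM with it and 181 and 133 TPM without it.

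Summed over class II genes, the libraries held 134 and 139 TPM with Mdivi-1 and 146 and 172 TPM without it at 24 h, whereas class I genes summed to 8986 and 8516 TPM with Mdivi-1 and to 9598 and 9964 TPM without it. Most class II RNA was Cd74, at 38.6 and 39.2 TPM with Mdivi-1 and 46.0 and 59.5 TPM without it, and H2-DMb1, a chain of the peptide exchange factor H2-DM, at 33.0 and 33.6 TPM with it and 38.6 and 37.3 TPM without it. H2-Ab1 had 22.6 and 23.8 TPM with Mdivi-1, against 21.1 and 25.9 TPM without it, and its partner H2-Aa had 13.7 and 14.2 TPM with it, against 11.5 and 15.1 TPM without it. The groups overlapped for both of these chains. Ciita, the regulator on which class II transcription is known to depend, stayed under 1 TPM in each of the 12 libraries and was not tested.

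Processing genes were all present at 24 h. Tapbp led them with 433 and 403 TPM under Mdivi-1 and 516 and 533 TPM without it, followed by Psme2 with 223 and 231 TPM under Mdivi-1 and 267 and 290 TPM without it. Psmb8 had 120 and 126 TPM with Mdivi-1 and 140 and 148 TPM without it, Tap1 had 45.3 and 41.7 TPM with it and 49.9 and 53.6 TPM without it, and Psmb9, transcribed from the same promoter region as Tap1, had 24.6 and 25.7 TPM with it and 24.8 and 24.5 TPM without it. For Tapbp, Psme2, Psmb8 and Tap1 both Mdivi-1 libraries lay below both others.

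**Figure D1:**
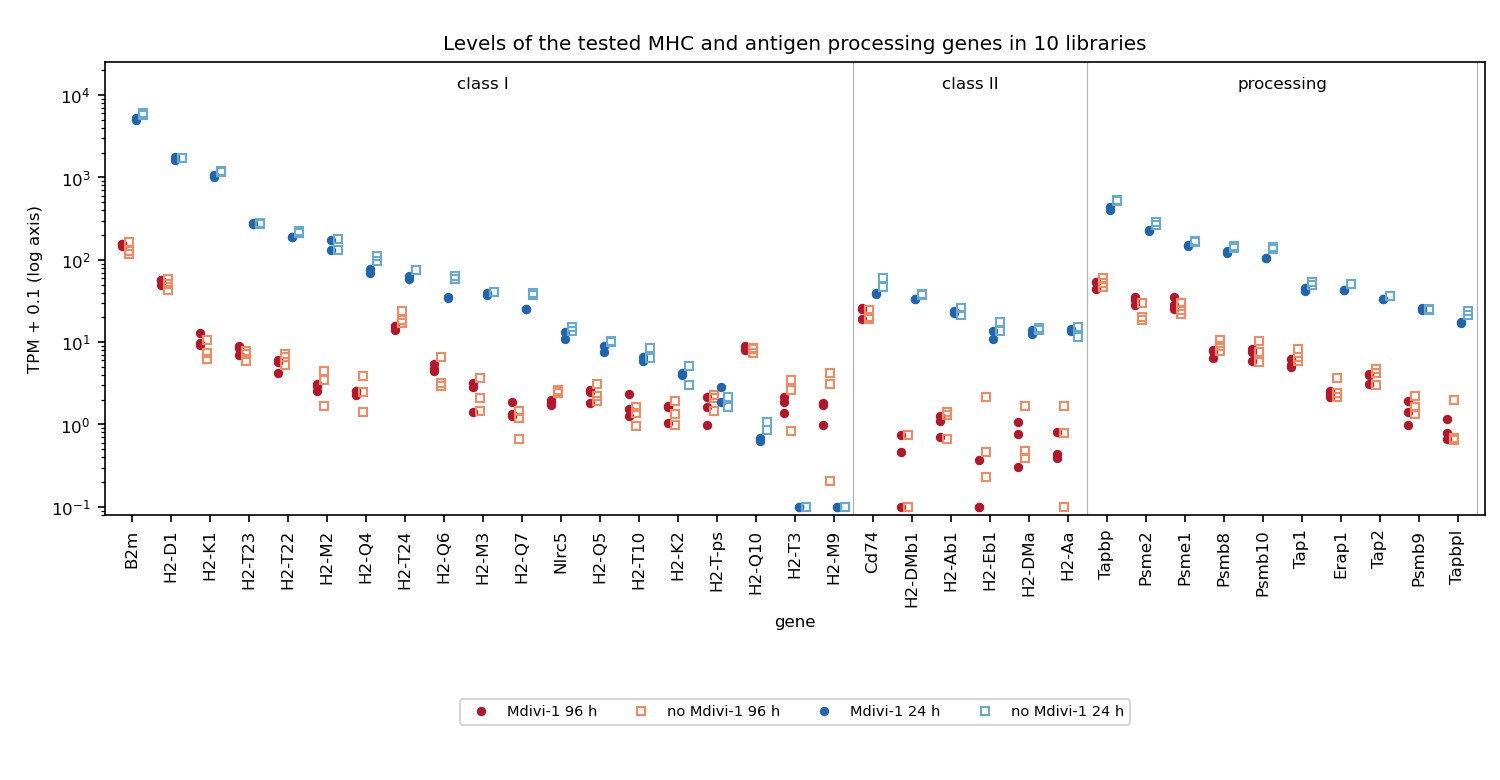
Levels of the 35 tested class I, class II and processing genes in TPM with 0.1 added, on a log axis, 1 point for each of 10 libraries. The 96 h points of B2m lie between 117 and 167 TPM and its 24 h points between 5056 and 6046 TPM. Cd74 shows a far smaller gap, with 18.9 to 25.5 TPM at 96 h and 38.6 to 59.5 TPM at 24 h.

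None of the 36 members that passed the filter of a mean of 1 TPM was called changed by Mdivi-1 at 24 h with limma at an adjusted p under 0.05. Over all 19631 genes tested, 0 were called higher (0.0%) and 58 lower (0.295%), and 4 members had an unadjusted p under 0.05. Values were nonetheless mostly lower with Mdivi-1: in 23 of the 36 members both Mdivi-1 libraries lay below both others, and in 0 above, against 40.4% and 2.94% of all genes tested. The members' median log2 change was -0.20, against -0.06 over all genes tested, and among genes with a mean of at least 5 TPM it was -0.23 over 30 members and -0.18 over all. By class the median was -0.19 over 19 class I, -0.15 over 6 class II and -0.24 over 10 processing genes.

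The largest difference at 24 h was that of H2-Q6, a nonclassical class I gene of the Qa region, with 35.4 and 34.1 TPM under Mdivi-1 and 58.9 and 63.7 TPM without it. Its log2 change was -0.80 ± 0.27 (SE) with an adjusted p of 0.481 in limma. The neighbouring H2-Q7 had 25.2 and 25.3 TPM with Mdivi-1 and 37.0 and 39.6 TPM without it, a log2 change of -0.58 ± 0.22 (limma, adjusted p = 0.609). H2-Q6 and H2-Q7 were named here after their values were seen. H2-Q6 and H2-Q7 share 32.0% and 26.4% of their 50-base words with other genes of the annotation. The gene sharing most was H2-Q7 for H2-Q6 (13.9%) and H2-Q10 for H2-Q7 (14%). Counting could therefore have split reads among such genes.

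Among the lead genes at 24 h, Cd74 changed by -0.42 ± 0.18 on the log2 scale (adjusted p = 0.769 in limma) and Tapbp by -0.33 ± 0.14 (adjusted p = 0.765). B2m and H2-K1 were both at -0.19, with SE of 0.17 and 0.21, H2-D1 was at -0.03 ± 0.15 and H2-T23 at 0.01 ± 0.15. Nlrc5, the class I transactivator, was at -0.24 ± 0.18, Tap1 at -0.24 ± 0.16, Psmb8 at -0.22 ± 0.15, Psme1 at -0.16 ± 0.17 and Psmb9 at 0.03 ± 0.22, and the class II chains lay between -0.31 ± 0.41 (H2-Eb1) and 0.08 ± 0.38 (H2-Aa). Each of these genes other than Cd74 and Tapbp had an adjusted p of 1 in limma.

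Which genes were called at 24 h depended on the libraries that set the spread and on the scale. With 24 h libraries 1 and 2 fitted alone, 11 of 33 members were called lower (B2m, H2-K1, H2-Q4, H2-Q6, H2-Q7, H2-T24, Cd74, Psmb10, Psme2, Tapbp and Tapbpl), against 2350 of 11105 genes lower (21.2%) and 0.666% higher, and the fitted log2 changes were those above. With median-of-ratios scaling in the same 4 libraries, H2-Q6 was called lower (-0.52 ± 0.07, adjusted p = 0.00716 in limma) and H2-T23 higher (0.30 ± 0.07, adjusted p = 0.0425), against 7.68% and 4.97% of genes, and B2m stood at 0.09. The share of TPM in named protein-coding nuclear genes was 41.0 and 38.1% with Mdivi-1 and 44.6 and 44.7% without it. Per 1000000 transcripts that are neither mitochondrial nor structured RNA, class I summed to 20341 and 21193 with Mdivi-1 and to 20101 and 20573 without it, so the groups overlapped on that scale. Without the no Mdivi-1 96 h library 3, H2-Q6 was also called lower with the other 9 libraries fitted (adjusted p = 0.017 in limma), against 1.73% of genes lower and 0.0147% higher. With a pseudocount of 5, H2-Q7 was called lower, against 2.08% of genes.

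Collagen and other fibroblast markers also moved at 24 h. The 9 markers summed to 78.4 and 56.7 TPM with Mdivi-1 and to 271 and 297 TPM without it, and Col1a1, Col1a2 and Col3a1 were called lower in limma (Col1a1 at -2.67 ± 0.29, adjusted p = 0.00932). B cell, dendritic cell, T cell and epithelial markers summed to at most 1.03 TPM for each list in the same libraries. The part of such markers in the values of the H2 and processing genes was not tested.

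**Figure D2:**
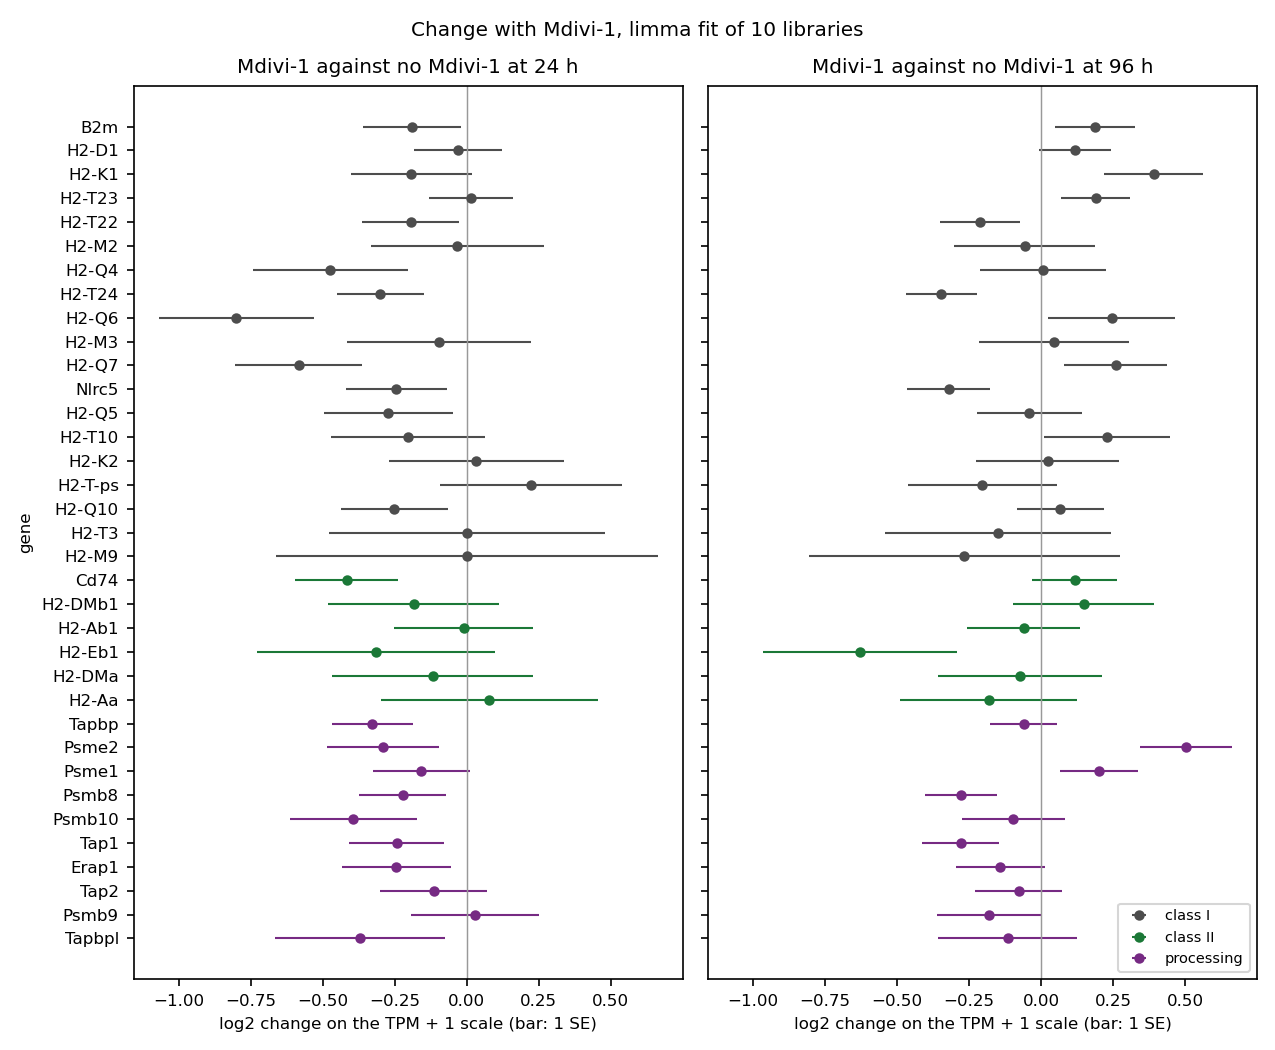
Log2 change with Mdivi-1 against no Mdivi-1 on the log2(TPM + 1) scale at 24 h (left panel) and 96 h (right panel) for 35 genes, with bars of 1 SE from limma. At 24 h most points lie left of 0, with H2-Q6 at -0.80 and H2-Q7 at -0.58, and at 96 h they lie on both sides, from -0.63 (H2-Eb1) to 0.50 (Psme2); no point was called in either panel.

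At 96 h the libraries with and without Mdivi-1 overlapped in 34 of the 36 members tested. B2m had 157, 157 and 148 TPM with Mdivi-1 and 117, 127 and 167 TPM without it. H2-D1 had 57.4, 56.8 and 49.9 TPM with Mdivi-1, against 42.4, 50.8 and 59.0 TPM without it. H2-K1 had 12.9, 9.14 and 9.79 TPM with it, against 7.26, 6.11 and 10.5 TPM without it. In all 3 genes the highest library without Mdivi-1 was library 3, and it lay inside or above the range of the Mdivi-1 libraries.

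By limma, 0 of the 36 members tested were called at 96 h, against 20 genes higher (0.102%) and 8 lower (0.0408%) of 19631, and 5 members had an unadjusted p under 0.05. Psme2, a subunit of the proteasome activator, had 35.3, 32.8 and 28.0 TPM with Mdivi-1 and 18.4, 20.0 and 29.6 TPM without it, a log2 change of 0.50 ± 0.16 (adjusted p = 0.528 in limma). It shares 28.3% of its 50-base words with Psme2b, and it was named after its value was seen. H2-K1 was at 0.39 ± 0.17 (adjusted p = 0.845), Nlrc5 at -0.32 ± 0.14 (0.874), Psmb8 at -0.28 ± 0.12 (0.868) and Tap1 at -0.28 ± 0.13 (0.945), all adjusted p in limma. The other lead genes had an adjusted p of 1, with B2m at 0.19 ± 0.14, H2-D1 at 0.12 ± 0.12, H2-T23 at 0.19 ± 0.12, Cd74 at 0.12 ± 0.15, H2-Ab1 at -0.06 ± 0.20, H2-DMa at -0.07 ± 0.28, H2-Aa at -0.18 ± 0.31, H2-Eb1 at -0.63 ± 0.34, Tapbp at -0.06 ± 0.12, Psmb9 at -0.18 ± 0.18 and Psme1 at 0.20 ± 0.14.

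The groups did not overlap at 96 h in 2 members, Nlrc5 and H2-T24, against 4.05% of all genes lower without overlap and 2.13% higher. Nlrc5 had 1.73, 1.61 and 1.87 TPM with Mdivi-1 and 2.29, 2.49 and 2.49 TPM without it. The medians of the sensory receptor genes in these libraries were 1.28, 1.38 and 1.87 TPM with Mdivi-1. Without Mdivi-1 they were 2.71, 2.11 and 0.501 TPM. The part of that background in Nlrc5 was not tested. H2-T24, a nonclassical class I gene, had 15.7, 15.4 and 14.1 TPM with Mdivi-1 and 16.9, 18.4 and 23.7 TPM without it. Its log2 change was -0.35 ± 0.12 (adjusted p = 0.644 in limma). Without the no Mdivi-1 library 3, which stands apart, 2 of 37 members were called higher, Psme2 (0.70 ± 0.11, adjusted p = 0.0247) and H2-Q6 (0.55 ± 0.11, adjusted p = 0.0385), against 0.706% of 20402 genes higher and 3.24% lower in limma.

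No member's Mdivi-1 effect was called different between the times with limma, against 22 genes higher (0.112%) and 2 lower (0.0102%), and 4 members had an unadjusted p under 0.05. H2-Q6 had the largest difference, 96 h minus 24 h, of 1.05 ± 0.35 (adjusted p = 0.719 in limma). It was called without the no Mdivi-1 96 h library 3 (1.35 ± 0.16, adjusted p = 0.0179 in limma), against 57 genes higher (0.279%). H2-Q7 differed by 0.84 ± 0.28, Psme2 by 0.79 ± 0.25 and Cd74 by 0.53 ± 0.23, with an adjusted p of 0.632 to 1 in limma. Among the other lead genes the difference ran from -0.32 ± 0.53 (H2-Eb1) to 0.58 ± 0.27 (H2-K1), with 0.38 ± 0.22 for B2m, 0.15 ± 0.20 for H2-D1, 0.17 ± 0.19 for H2-T23, -0.08 ± 0.23 for Nlrc5, 0.36 ± 0.22 for Psme1 and 0.27 ± 0.18 for Tapbp, and each had an adjusted p of 1.

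Between the times most members fell in TPM. With Mdivi-1, 32 of 36 were called lower at 96 h than at 24 h and 2 higher, against 44.0% and 35.3% of all genes tested. Without Mdivi-1, 32 were called lower and 3 higher, against 46.9% and 36.3%. Most genes of higher level fell as well. Of 5813 genes with a mean of at least 5 TPM, 5121 were called lower and 548 higher with Mdivi-1. Without it 5170 were called lower and 534 higher. Of the 30 members among them, 29 were called lower and 1 higher under each condition. All 6 tested class II genes and all 10 processing genes fell under both conditions, as did 15 of 19 class I genes. The filter kept genes by their mean, so most members passed through their 24 h level and had to differ if they were low at 96 h, and these counts support nothing beyond the genes' own values. With all 12 libraries, 0 members were called lower and 2 higher with Mdivi-1 (H2-Q10 and H2-T3), and 0 lower and 3 higher without it (those and H2-M9). Of all genes, 0.204% and 0.379% were then called lower and 31.6% and 27.9% higher, with and then without Mdivi-1. Those fits hold the 2 near-empty 24 h libraries.

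H2-K1 fell furthest, by a log2 change of -6.50 ± 0.19 with Mdivi-1 (limma, adjusted p = 1.34e-09) and -7.08 ± 0.19 without it (adjusted p = 7.77e-10). B2m changed by -5.05 ± 0.16 with Mdivi-1 and -5.43 ± 0.16 without it, H2-T23 by -4.95 ± 0.13 and -5.13 ± 0.13, and H2-D1 by -4.92 ± 0.14 and -5.07 ± 0.14. Nlrc5 fell less, with 1.61 to 2.49 TPM at 96 h and 10.8 to 15.3 TPM at 24 h, changes of -2.24 ± 0.16 with Mdivi-1 and -2.16 ± 0.16 without it. All of these calls had an adjusted p under 0.05 in limma, at most 5.58e-07.

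Class II chains reached levels around those of the sensory receptor genes. H2-Ab1 had 0.9997, 1.17 and 0.608 TPM at 96 h with Mdivi-1, against 22.6 and 23.8 TPM at 24 h, and 1.19, 1.32 and 0.562 TPM at 96 h without it, against 21.1 and 25.9 TPM at 24 h. Its log2 changes were -3.66 ± 0.22 and -3.61 ± 0.22, those of H2-Aa were -3.38 ± 0.34 and -3.12 ± 0.34, those of H2-DMa -3.18 ± 0.32 and -3.23 ± 0.32 and those of H2-Eb1 -3.60 ± 0.38 and -3.29 ± 0.38, with and then without Mdivi-1. Cd74 stood apart from them, with 25.5, 25 and 19.0 TPM at 96 h with Mdivi-1 and 20.3, 18.9 and 24.6 TPM without it. Its log2 changes were -0.73 ± 0.16 with Mdivi-1 (limma, adjusted p = 0.00249) and -1.27 ± 0.16 without it (adjusted p = 4.62e-05), and they turned positive on other scales, as given below.

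Processing genes fell by amounts that differed among them. Psmb8 changed by -3.91 ± 0.14 with Mdivi-1 and -3.85 ± 0.14 without it, Psmb9 by -3.50 ± 0.20 and -3.30 ± 0.20, Tapbp by -3.03 ± 0.13 and -3.30 ± 0.13, Tap1 by -2.80 ± 0.15 and -2.77 ± 0.15, and Psme1 by -2.32 ± 0.15 and -2.68 ± 0.15, each called in limma with an adjusted p of at most 2.38e-07. Tapbp, Psme1 and Psme2 were the processing genes above 10 TPM in every 96 h library, with Tapbp at 53.9, 53.2 and 44.3 TPM with Mdivi-1 and 46.4, 52.3 and 59.6 TPM without it. Tapbpl, a tapasin-related gene, had at most 1.86 TPM there.

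The members higher at 96 h were low-level class I genes. H2-Q10, known in mice as a secreted class I molecule of the liver, had 8.28, 8.85 and 7.93 TPM at 96 h with Mdivi-1, against 0.536 and 0.585 TPM at 24 h. Without Mdivi-1 it had 7.26, 8.42 and 8.15 TPM at 96 h, against 0.746 and 0.977 TPM at 24 h. It rose by log2 changes of 2.58 ± 0.17 and 2.26 ± 0.17 (limma, adjusted p = 2.27e-07 and 5.55e-07). H2-Q10 passed the filter only through its 96 h levels, so the direction of its tests was fixed. They support nothing beyond its own values. Its level in no Mdivi-1 library 3, where the receptor genes were lowest, was as high as in the other 96 h libraries. It shares 19.0% of its 50-base words with other genes, mainly H2-Q7. Both 24 h libraries numbered 3, left out of the fit, had 0.384 (Mdivi-1) and 1.03 TPM (no Mdivi-1) of H2-Q10. Rescaled to named protein-coding nuclear genes, as described below, they had 103.6 (Mdivi-1) and 150.5 (no Mdivi-1). On that scale the 96 h libraries had 109.5 to 144.4, and the other 24 h libraries had 1.307 to 2.184. Neither the part of library make-up nor that of the receptor background in the rise of H2-Q10 was tested.

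H2-T3, a nonclassical class I gene, was listed at 0 in the 24 h libraries used and had 1.80, 1.28 and 2.07 TPM at 96 h with Mdivi-1 and 3.38, 2.53 and 0.731 TPM without it (limma, adjusted p = 0.0129 and 0.0076). H2-M9 was also listed at 0 at 24 h and had 1.70, 0.881 and 1.61 TPM with Mdivi-1 at 96 h (adjusted p = 0.0795 in limma) and 3.03, 4.18 and 0.106 TPM without it (adjusted p = 0.0384). Both were lowest in no Mdivi-1 library 3, where the median sensory receptor gene had 0.501 TPM, against 2.71 and 2.11 TPM in libraries 1 and 2 of that group. The part of that background in these values was not tested. H2-T3 and H2-M9 passed the filter only through their 96 h levels. The direction of their tests was therefore fixed, and the tests support nothing beyond the genes' own values.

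Of the 23 members below the filter, 14 were at 0 in all of 24 h libraries 1 and 2, and in those libraries none was above 1.20 TPM (H2-DMb2). At 96 h none of the 23 was at 0 in all 6 libraries, and their highest value was 2.93 TPM (H2-Ob). H2-DMb2, a chain of H2-DM, was listed at 0 in the 3 Mdivi-1 libraries at 96 h, against 0.431 and 0.992 TPM at 24 h, whereas H2-M5 had 0.912, 2.01 and 2.22 TPM at 96 h with Mdivi-1 and was listed at 0 at 24 h, so these genes did not move one way. Both were named after their values were seen. They are 15 class I genes, among them the H2-M10 family of vomeronasal neurons, and 8 class II genes, among them H2-Oa and H2-Ob, the chains of the H2-DM inhibitor H2-O. H2-T-ps, a class I pseudogene, was tested and not called at either condition, with log2 changes of -0.40 ± 0.29 and 0.03 ± 0.29.

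Scaled to the RNA of named protein-coding nuclear genes alone, which made up 5.64 to 6.63% of TPM at 96 h and 38.1 to 44.7% at 24 h, fewer members fell. On that scale, chosen after seeing the data, 18 of 48 members were called lower and 14 higher with Mdivi-1, and 20 lower and 16 higher without it. The background was 10.2% lower and 58.9% higher with Mdivi-1, and 10.1% and 55.8% without it, and the median log2 change of all genes was 1.75 and 1.55, against -0.12 and -0.41 on the TPM scale, each with and then without Mdivi-1. B2m and some heavy chains stayed lower, among 9 class I genes called lower and 10 higher of 26 with Mdivi-1, and 10 lower and 11 higher without it. H2-M1, H2-M5, H2-M9, H2-M10.3, H2-M11 and H2-T3, called higher under both conditions, were listed at 0 in 24 h libraries 1 and 2. They passed the filter only through 96 h, so their direction was fixed. The same holds for H2-Q1, H2-M10.1, H2-M10.5 and H2-M10.6, each called higher under either or both conditions. With Mdivi-1, that scale also called higher 5 of 5 B cell, 4 of 4 T cell and 4 of 4 epithelial markers. Of 9 macrophage markers it called 1 higher and 7 lower. H2-Q6 was called lower only without Mdivi-1 on that scale (-0.15 ± 0.33 with it, adjusted p = 0.704, and -1.14 ± 0.33 without it, adjusted p = 0.00832, in limma), and the difference of these changes was not called (adjusted p = 1 in limma). H2-K1 changed by -3.91 ± 0.26 with Mdivi-1 and -4.40 ± 0.26 without it, B2m by -2.35 ± 0.27 and -2.60 ± 0.27, and H2-D1 by -2.23 ± 0.22 and -2.26 ± 0.22, all called in limma (adjusted p at most 1.85e-05). H2-K1 per 1000000 of those transcripts was 148 to 220 (Mdivi-1) and 94.5 to 186 (no Mdivi-1) at 96 h, against 2601 and 2642 (Mdivi-1) and 2645 and 2659 (no Mdivi-1) at 24 h.

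Cd74 was higher at 96 h on that scale, by 1.94 ± 0.21 with Mdivi-1 (limma, adjusted p = 1.27e-05) and 1.53 ± 0.21 without it (adjusted p = 6.4e-05), and H2-T24 by 0.70 ± 0.20 (adjusted p = 0.00665) and 0.89 ± 0.20 (adjusted p = 0.00158), so for both genes the direction of the time difference depends on the scale. Tap1 was at -0.30 ± 0.19 and -0.10 ± 0.19 and Psme1 at 0.35 ± 0.20 and 0.11 ± 0.20, and neither was called in limma (adjusted p from 0.137 to 0.66). Psmb8 remained lower, at -1.36 ± 0.20 and -1.15 ± 0.20. Of the class II genes H2-Ab1, H2-DMa and H2-DMb1 stayed called lower under both conditions, and H2-Oa, H2-Ob and H2-Eb2, none above 2.93 TPM at 96 h, were called higher. H2-Oa, H2-Ob and H2-Eb2 passed the filter on that scale only through their 96 h levels, so their direction was fixed. Ciita passed the filter on that scale only through its 96 h level. It was called higher there without Mdivi-1 (2.08 ± 0.84 in limma) and not with it (1.69 ± 0.84), and the difference of these changes was not called. Without Mdivi-1 its rescaled values were 12.55, 15.22 and 1.035 at 96 h, against 0.792 and 0.816 at 24 h. In TPM they were 0.832, 0.984 and 0.0584, against 0.353 and 0.365. The lowest 96 h value was that of library 3, where the sensory receptor genes were lowest. The part of that background in Ciita was not tested.

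**Figure D3:**
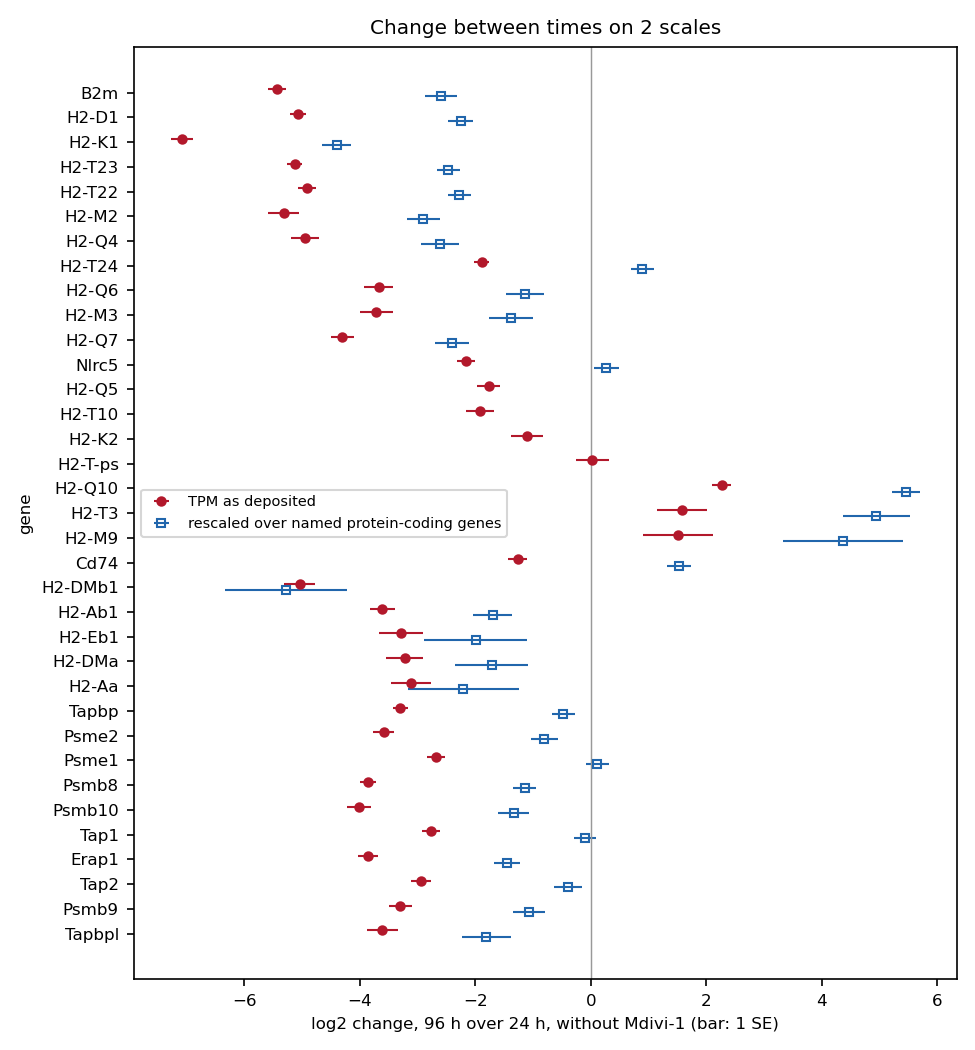
Log2 change at 96 h over 24 h without Mdivi-1 for the tested genes, in TPM as deposited (circles) and rescaled to named protein-coding nuclear genes (squares; H2-Q5, H2-T10, H2-K2 and H2-T-ps have none), with bars of 1 SE from limma. H2-K1 lies at -7.08 and -4.40 and B2m at -5.43 and -2.60, left of 0 on both scales, and Cd74 moves from left of 0 at -1.27 in TPM to right of it at 1.53 when rescaled.

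Ratios within a library do not depend on these scales, and they show that the genes of a class did not change by equal amounts. H2-K1 was 0.224, 0.161 and 0.196 of H2-D1 at 96 h with Mdivi-1 and 0.171, 0.120 and 0.177 without it, against 0.605 and 0.625 at 24 h with Mdivi-1 and 0.687 and 0.689 without it. H2-D1 kept closer to B2m, with ratios of 0.338 to 0.399 at 96 h and 0.286 to 0.338 at 24 h, whereas Cd74 was 0.129 to 0.174 of B2m at 96 h and 0.00739 to 0.00984 at 24 h. Both 24 h libraries numbered 3, left out of the fit, had a Cd74 to B2m ratio of 0.145 (Mdivi-1) and 0.150 (no Mdivi-1), within the range of the 96 h libraries and not that of the other 24 h libraries. Their H2-K1 to H2-D1 ratios, 0.157 and 0.260, were also nearer those of 96 h. Their H2-D1 to B2m ratios were 0.326 (Mdivi-1) and 0.459 (no Mdivi-1). The part of mitochondrial RNA in these ratios was not tested.

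The inducible proteasome subunits differed in their ratios to the constitutive subunits they are known to replace. Psmb8 to Psmb5 was 1.75, 1.997 and 2.07 at 96 h with Mdivi-1 and 2.33, 3.02 and 4.01 without it, against 0.552 and 0.583 at 24 h with Mdivi-1 and 0.639 and 0.661 without it. At both times the Mdivi-1 libraries lay below the others, and the share of other gene pairs that do so was not computed. Psmb5 had only 2.64 to 4.38 TPM at 96 h, against 217 to 225 TPM in 24 h libraries 1 and 2. Medians of the sensory receptor genes reached 2.71 TPM at 96 h. The part of that background in this ratio was not tested. Psmb10 to Psmb7 was lower at 96 h, 1.22 to 1.96, than at 24 h, 2.32 to 2.83, and Psmb9 to Psmb6 spanned 0.0890 to 0.256 at 96 h and 0.156 to 0.169 at 24 h, with overlap. The 3 pairs thus did not move one way between the times.

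Of the 5 ratios to or of B2m computed, 2 separated the 96 h libraries with Mdivi-1 from those without it. B2m to Actb was 0.554, 0.527 and 0.583 with Mdivi-1 and 0.375, 0.355 and 0.362 without it, and at 24 h 1.02 and 1.02 with Mdivi-1 and 0.954 and 1.02 without it. H2-T24 to B2m was 0.1001, 0.0981 and 0.0957 at 96 h with Mdivi-1, against 0.145, 0.144 and 0.142 without it. The ratios of H2-D1, H2-K1 and Cd74 to B2m overlapped between the groups at 96 h, and Cd74 to Actb did not, at 0.0900, 0.0837 and 0.0751 with Mdivi-1 and 0.0652, 0.0528 and 0.0534 without it. These ratios were picked after their values were seen and are given as a description, and an exact permutation test of 3 against 3 libraries cannot go below p = 0.10 two-sided.

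**Figure D4:**
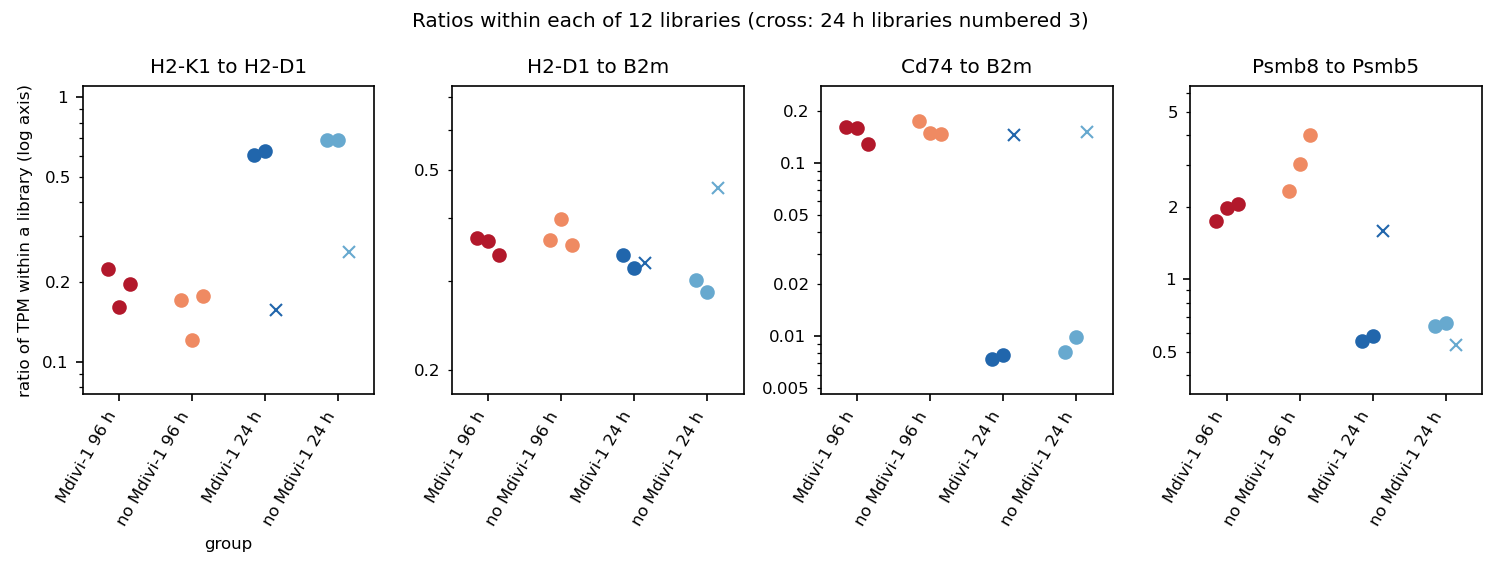
Ratio of TPM of 2 genes within each of the 12 libraries, on log axes, with 1 point a library by group and crosses for the 24 h libraries numbered 3. The H2-K1 to H2-D1 ratio is 0.120 to 0.224 at 96 h and 0.605 to 0.689 in 24 h libraries 1 and 2, and the Cd74 to B2m ratio of both crosses, 0.145 and 0.150, lies among the 96 h points.

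Across the 10 libraries the genes whose log2 levels were most like B2m among 5813 with a mean of at least 5 TPM were Tmsb4x, Capzb, Clec4d, Npc2 and Lamp1, with Pearson r of 0.9996 to 0.9998. Those most like Cd74 were Ehd1, Rhbdf2, Ptpn2, Slfn4 and Crebzf, with r of 0.974 to 0.975. These correlations mostly follow the gap between the times, which the 10 libraries share with their make-up.

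In the fit of 10 libraries, other genes of the same pathways were not called with Mdivi-1 in limma: 0 of 17 genes of IFN-γ signalling and MHC regulation, 0 of 15 of the constitutive proteasome and peptide steps, 0 of 9 of class II endosomal steps and 0 of 7 class I-like genes, at 24 h and at 96 h. With 24 h libraries 1 and 2 fitted alone, limma called 5 of the 17 regulators lower (Nfyc, Irf2, Irf1, Socs3 and Jak2), 1 of the 15 proteasome and peptide genes lower (Lnpep) and 1 higher (Calr), 2 of the 9 endosomal genes lower (Ctss and March1) and 4 of 6 class I-like genes lower (Cd1d1, Fcgrt, Ulbp1 and Raet1e), against the 21.2% of all genes lower and 0.666% higher in that fit. At 96 h against 24 h in TPM, 14 of the 17 regulators were lower with Mdivi-1 and 14 without it, all 15 proteasome and peptide genes and all 9 endosomal genes were lower under both conditions, and of the 7 class I-like genes 5 (Mdivi-1) and 6 (no Mdivi-1) were lower, where 44.0% (Mdivi-1) and 46.9% (no Mdivi-1) of all genes were. Of the 5813 genes with a mean of at least 5 TPM, 5121 (Mdivi-1) and 5170 (no Mdivi-1) were lower. The pathway genes too passed the filter by their mean over both times, so the counts support nothing beyond the genes' own values.

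Among the regulators, Nfyb and Socs3, an inhibitor of cytokine signalling, were not called lower at 96 h under either condition. Rfx5 was not called lower with Mdivi-1, and Rfxap was not called lower without it. Socs3 had 25.7, 25.3 and 19.4 TPM at 96 h with Mdivi-1 and 29.7, 31.3 and 44.3 TPM without it. At 24 h it had 26.4 and 28.9 TPM with Mdivi-1 and 39.7 and 50.4 TPM without it. It was not called in any comparison of the 10-library fit in limma (adjusted p from 0.0944 to 1), and it was called lower with Mdivi-1 when 24 h libraries 1 and 2 were fitted alone. At each time every Mdivi-1 library lay below every library without it, as did those of 40.4% of all genes at 24 h and 4.05% at 96 h. Cathepsin S (Ctss), which degrades the invariant chain, had 165, 151 and 164 TPM at 96 h with Mdivi-1 and 155, 173 and 213 TPM without it, against 5106 and 4954 TPM at 24 h with it and 5605 and 5652 TPM at 24 h without it, log2 changes of -4.97 ± 0.15 and -4.97 ± 0.15. Cd1d2, a class I-like gene that presents lipids, was higher at 96 h (1.45 ± 0.51 with Mdivi-1, limma, adjusted p = 0.0233, and 1.74 ± 0.51 without it, adjusted p = 0.00981), at 1.004 to 4.78 TPM against at most 0.347 TPM in 24 h libraries 1 and 2. It passed the filter only through its 96 h level, so the direction of its tests was fixed. Without Mdivi-1 it had 3.82, 3.39 and 1.004 TPM at 96 h, lowest in library 3, where the sensory receptor genes were lowest too. The part of that background in Cd1d2 was not tested. Scaled to named protein-coding genes, 5 regulators were called lower with Mdivi-1 and 6 without it, and 5 were called higher under each condition, against 10.2% (Mdivi-1) and 10.1% (no Mdivi-1) of all genes lower and 58.9% (Mdivi-1) and 55.8% (no Mdivi-1) higher on that scale.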

How the data were processed

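The authors deposited 1 table of TPM values for 49585 genes in 12 libraries. Each column sums to 1000000, so depth and counting error are unknown. Per the labels' protocols, cells were grown in DMEM with 10% FBS, RNA was taken with TRIZOL, and 100 ng of total RNA was depleted of ribosomal RNA and made into directional libraries. The submitters' processing notes name hg19, a human build, although 49326 of the identifiers (99.5%) are mouse genes of GENCODE M21, so no coordinates were taken from the table. For the aligner and counter the sources used here give no name. The reference is C57BL/6, and how well reads of the polymorphic H2 genes of a BALB/c line aligned was not tested.

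The members, gene lists, lead genes and choice of libraries were made with earlier results of these data known. Genes with a mean of at least 1 TPM over 10 libraries were kept, and all 4 groups entered 1 limma-trend model of log2(TPM + 1), leaving out both 24 h libraries numbered 3 (6 residual degrees of freedom, limma 3.58.1 under R 4.3.3). The Benjamini-Hochberg adjustment covered all 19631 genes, and an adjusted p under 0.05 counted as a call. The added 1 TPM makes the log2 changes of low genes too small. The fit was tested on simulated data. Values are given for 16 lead genes, any member called, and others by level. The 24 alternatives changed the libraries, scaling, pseudocount or filter. Shared sequence was counted as 50-base words of GENCODE M21 transcripts, and motifs were searched in RefSeq promoters. Tables and plots used Python 3.11.15, pandas 2.3.3, numpy 2.4.6 and matplotlib 3.10.9. Whether libraries of a group came from separate cultures is not stated, and the p-values therefore reflect a spread between libraries that may be technical.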

Additional observations from a re-analysis of the deposited data

How the results depend on the processing

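At 24 h the count of members called with Mdivi-1 was 0 in the fit of 10 libraries, 1 with a pseudocount of 5 (H2-Q7), 11 with 24 h libraries 1 and 2 alone and 2 with median-of-ratios scaling in them, and 0 to 1 when each library was left out in turn. It was 0 to 2 at 96 h and 0 to 1 for the difference of the effects when each library was left out, each time above 0 only without no Mdivi-1 96 h library 3. Called between the times were 34 and 35 members with and without Mdivi-1, 33 to 36 without each library in turn under either condition, and 2 and 3 with all 12 libraries. Fitted with the replicate number as a block, 0, 0 and 0 members were called for Mdivi-1 at 24 h, at 96 h and for the difference, and 31 and 33 between the times. The numbers do not pair the samples: same-numbered libraries of the 10 used correlated at -0.02 at 24 h and at -0.11, -0.02 and -0.24 at 96 h. Where 1 library was left of a group, it is assumed to vary like the other groups.

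The log2 change with Mdivi-1 at 24 h turned its sign with all 12 libraries for H2-T23 (-0.049). With median-of-ratios scaling, it did so for B2m (0.16), H2-Ab1 (0.31), H2-D1 (0.32), H2-DMa (0.19), H2-Eb1 (0.014), H2-K1 (0.16), Nlrc5 (0.076), Psmb8 (0.13), Psme1 (0.19), Tap1 (0.10) and Tapbp (0.023). With that scaling in 24 h libraries 1 and 2 alone, it did so for B2m (0.091), H2-Ab1 (0.26), H2-D1 (0.25), H2-DMa (0.14), H2-K1 (0.089), Nlrc5 (0.017), Psmb8 (0.057), Psme1 (0.12) and Tap1 (0.032). With the receptor background subtracted, it did so for H2-Ab1 (0.15), H2-D1 (0.16), H2-DMa (0.048) and Psme1 (0.031). Rescaled to named protein-coding genes, it did so for H2-Ab1 (0.16), H2-D1 (0.15), H2-DMa (0.048) and Psme1 (0.017). Rescaled without mitochondrial and structured RNA, it did so for H2-Ab1 (0.18), H2-D1 (0.16), H2-DMa (0.062) and Psme1 (0.032). Without each library in turn it ranged across 0 for H2-Aa (-0.11 to 0.26), H2-Ab1 (-0.15 to 0.13), H2-D1 (-0.10 to 0.036) and H2-T23 (-0.020 to 0.050). That at 96 h turned its sign with median-of-ratios scaling for Tapbp (0.015). With a pseudocount of 0.1, it did so for H2-Aa (0.029). Rescaled to named protein-coding genes, it did so for H2-Aa (0.26). Rescaled without mitochondrial and structured RNA, it did so for H2-Aa (0.044). Without each library in turn it ranged across 0 for H2-Aa (-0.53 to 0.14), H2-Ab1 (-0.24 to 0.063), H2-DMa (-0.25 to 0.24) and Tapbp (-0.15 to 0.028). The difference of these effects turned its sign with all 12 libraries for H2-Ab1 (0.031) and H2-DMa (-0.040). With median-of-ratios scaling, it did so for H2-D1 (-0.13), H2-DMa (-0.23), H2-T23 (-0.10) and Tapbp (-0.0084). With a pseudocount of 5, it did so for H2-Eb1 (0.061), Nlrc5 (0.050), Psmb8 (0.022) and Tap1 (0.046). With the receptor background subtracted, it did so for H2-D1 (-0.052), H2-DMa (-0.048) and H2-Eb1 (0.11). Rescaled to named protein-coding genes, it did so for H2-Aa (0.0085) and H2-DMa (-0.13). Rescaled without mitochondrial and structured RNA, it did so for H2-D1 (-0.058), H2-DMa (-0.18) and H2-T23 (-0.019). Without each library in turn it ranged across 0 for H2-Aa (-0.61 to 0.064), H2-Ab1 (-0.23 to 0.092), H2-DMa (-0.13 to 0.36), H2-Eb1 (-0.60 to 0.12), Nlrc5 (-0.21 to 0.055), Psmb8 (-0.15 to 0.047) and Tap1 (-0.12 to 0.082). The change at 96 h against 24 h with Mdivi-1 turned its sign with all 12 libraries for Cd74 (0.66) and H2-T24 (0.0086). With median-of-ratios scaling, it did so for Cd74 (0.91) and H2-K2 (0.068). With the receptor background subtracted, it did so for Cd74 (0.068). Rescaled to named protein-coding genes, it did so for Cd74 (1.94), H2-T24 (0.70) and Psme1 (0.35). The change between the times without Mdivi-1 turned its sign with all 12 libraries for Cd74 (0.32) and H2-T24 (0.017). With median-of-ratios scaling, it did so for Cd74 (0.65), H2-K2 (0.22) and H2-T24 (0.031). Rescaled to named protein-coding genes, it did so for Cd74 (1.53), H2-T24 (0.89), Nlrc5 (0.27) and Psme1 (0.11). The cause of these turns was not tested. All but those between the times concern changes that were not called in the fit of 10 libraries. Depth is unknown, so low values have no counting limit.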
